A study of Mus musculus with 6 samples.

Results

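MHC class II and the invariant chain Cd74 were followed across 6 arrays of mouse T cells. The 6 genes are Cd74, H2-Aa, H2-Ab1, H2-Eb1, H2-DMa and Ciita, chosen by symbol in the array design from 19321 named genes, and each has 1 probe. All mice were male C57BL/6, aged 89 weeks (old) or 5 weeks (young) per the labels; the methods state an age for the old animals that is a little below this. The arrays hold CD4+ T cells of the small intestinal epithelium (intraepithelial lymphocytes, IEL) from old mice and from young mice, CD4+ T cells of the spleen (SP) from old mice and from young mice, and a pair of further old IEL fractions, cd27cd28 and others in the labels. The protocol describes a CD3+CD4+ sort of high purity. The gates of cd27cd28 and others are not given, and the labels describe both as not used in the paper. Each group is 1 array, and whether the cells of several mice were pooled is not stated. No test, SD or comparison with the spread between animals can therefore be had, and each difference is one between 2 arrays.

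MHC class II molecules are surface proteins that show peptides, made in endosomes from ingested protein, to CD4+ T cells. Each is a pair of an alpha and a beta chain: H2-Aa and H2-Ab1 encode the chains of I-A, and H2-Eb1 encodes the beta chain of I-E, whose alpha chain gene, H2-Ea, is nonfunctional in C57BL/6. Cd74, the invariant chain, plugs the groove of new class II molecules and guides them to endosomes, where H2-DMa, the alpha chain of H2-M, helps to remove the last piece of it. Ciita is the coactivator that switches these genes on, and it docks on factors bound to the X box (RFX) and the Y box (NF-Y) of their promoters. Class II is made mainly by B cells, dendritic cells and macrophages, and by gut epithelium under interferon gamma, whereas mouse T cells make little.

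The promoters are shown because Ciita acts through sites in class II promoters. Letters were taken from RefSeq, build GRCm38.p6, for 12 class II genes, of which 8 had a window, 3 of the 6 genes (H2-Aa, H2-Eb1 and H2-DMa) among them. Searched on both strands in the 250 bases before the start was GCAAC followed, after 20 to 30 bases, by GATTGG on the same strand. Neither motif overlaps the other, and both, with the gap, were chosen after these letters had been seen. The pair stood in 58 of all 32851 windows of this length (0.177%), GATTGG alone in 14.6% and GCAAC alone in 29.9%. The pair was found at 5 genes: H2-Aa, H2-Eb1, H2-Oa, H2-Ob and H2-Eb2. It was not found at H2-DMa, H2-DMb1 or H2-DMb2. GATTGG, with or without GCAAC, stood in some window of all 8 genes, although a further H2-DMa window lacked it. The 8 genes had 9 windows, and the 14.6% is a share of windows and not of genes. Below are positions -120 to -21 from the start of 4 of them, with both motifs in capitals. They lie at chr17:34287844-34287943 (minus strand) for H2-Aa, chr17:34305747-34305846 for H2-Eb1, chr17:34092259-34092358 for H2-Oa and chr17:34238785-34238884 for H2-Ob, the last 3 on the plus strand.
H2-Aa: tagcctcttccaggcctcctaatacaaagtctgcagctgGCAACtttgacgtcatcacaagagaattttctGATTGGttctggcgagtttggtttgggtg
H2-Eb1: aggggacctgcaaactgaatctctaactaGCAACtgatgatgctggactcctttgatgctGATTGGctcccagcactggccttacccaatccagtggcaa
H2-Oa: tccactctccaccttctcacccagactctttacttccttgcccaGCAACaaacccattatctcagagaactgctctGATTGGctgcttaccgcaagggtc
H2-Ob: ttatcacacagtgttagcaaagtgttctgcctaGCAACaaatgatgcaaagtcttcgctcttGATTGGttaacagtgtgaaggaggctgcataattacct
The gap between the motifs was 27, 26, 27 and 24 bases in that order, a description of the letters and not of binding.

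Of 23473 probes, 72.2% to 85.1% counted as detected on an array, meaning that the spot was brighter than the blank spots by over 2 SD. Signals are scanner intensities minus the blank spots, scaled so that the detected probes of an array have a median of 25, and between 4360 and 5261 probes per array exceeded a signal of 100. Calls, higher or lower, needed a difference over 2-fold and a signal over 100 on the brighter array. These thresholds were taken from the methods. The local background, the intensity around a spot, followed the spot itself over all probes (r of 0.959 to 0.983 on the log2 scale). It exceeded 80% of the spot for 56.2% to 66.2% of the detected probes of an array. High shares are therefore common here, and subtracting the local background may also remove signal, which was not tested. Repeated control spots had a log2 SD between 0.0797 and 0.212, which gives 0.18 for a difference between 2 spots. This covers spot error only, as seen in 2 positive controls. The error of dim probes near the blank spots was not measured, so a gap beyond this value may still lie within it. The sort markers Cd3e, a chain of CD3, and Cd4 were detected on all 6 arrays, at 68.9 to 305 and 361 to 892. The others array stood apart: macrophage and monocyte markers summed to 983 there and to between 131 and 215 on the other 5 arrays, and intestinal epithelial markers summed to 1253 there and to between 314 and 577 on the other 5. Lyz2 alone gave 711 of the first sum on others, and Krt8 375 of the second. Without Lyz2 the first sum was 272 on others and 111 to 194 elsewhere. Without Krt8 the second was 878 on others and 314 to 571 elsewhere.

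H2-Aa, the alpha chain of I-A, had a signal of 144 on old IEL, 140 on young IEL, 60.3 on old SP, 39.2 on young SP, 99.0 on cd27cd28 and 379 on others. All IEL arrays were above both spleen arrays. Old and young IEL stood within 2 SD of spot error of each other (0.36 on the log2 scale), and the other neighbours in this order lay further apart. H2-Aa was 3.58-fold higher in young IEL than in young SP (log2 difference 1.84) and 2.39-fold higher in old IEL than in old SP (1.26), both calls. After subtraction of the local background around each spot in place of the blank spots, these log2 differences were 2.54 and 0.18.

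H2-Ab1, the beta chain that pairs with H2-Aa, was the dimmest of the 6 probes, with 2.78 on old IEL, 3.56 on young IEL, 3.24 on cd27cd28 and 13.3 on others. It was not detected on either spleen array. The arrays other than others cannot be ordered, since their values lie at the limit of detection, and no H2-Ab1 value reached a signal of 100.

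H2-Eb1, the beta chain of I-E, had 47.4 on old IEL, 31.5 on young IEL, 33.4 on old SP, 17.1 on young SP, 53.0 on cd27cd28 and 162 on others. Others was highest and young SP lowest, as for H2-Aa. This order did not hold with local background subtracted, where others had 14.7, old IEL 50.5, young IEL 12.6, old SP 28.3, young SP 22.1 and cd27cd28 35.0. The neighbouring pairs cd27cd28 with old IEL, and old SP with young IEL, were within 2 SD of spot error. The partner of H2-Eb1, H2-Ea, has a probe and was not detected on any array.

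Cd74 had 35.6 on old IEL, 31.8 on young IEL, 100.4 on old SP, 18.2 on young SP, 21.6 on cd27cd28 and 107 on others. Its order was unlike that of the chains: old SP stood beside others at the top, 0.09 apart on the log2 scale, and young SP was lowest. The pairs old and young IEL, and cd27cd28 and young SP, were also within 2 SD of spot error. Old SP was 5.52-fold above young SP.

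H2-DMa, which edits the peptide load, varied least against the blank spots, with 137 on old IEL, 124 on young IEL, 189 on old SP, 94.8 on young SP, 215 on cd27cd28 and 199 on others. The highest and lowest arrays differed by 2.27-fold, against 9.66-fold for H2-Aa, 9.45-fold for H2-Eb1, 5.88-fold for Cd74 and 4.74-fold for Ciita. The local background beside the H2-DMa spot was 74.3% to 101.4% of the spot itself, and on old SP it exceeded the spot. With local background subtracted, H2-DMa spanned 6.85-fold over the other 5 arrays, against 6.53-fold for H2-Aa and 2.54-fold for Ciita over 6. The lowest H2-DMa value in that span was young IEL, where a raw intensity of 11.5 was left and the background was 95.3% of the spot. Its low variation was thus not kept, but the span rests on a small remainder and is imprecise.

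Ciita had 34.4 on old IEL, 32.4 on young IEL, 153 on old SP, 143 on young SP, 70.6 on cd27cd28 and 62.8 on others. Both spleen arrays were above every IEL array, the reverse of H2-Aa, and old and young SP, cd27cd28 and others, and old and young IEL each lay within 2 SD of spot error. Ciita was 4.45-fold lower in old IEL than in old SP and 4.43-fold lower in young IEL than in young SP, both calls. The local background was 79.0% to 89.6% of its spot. With local background subtracted, the raw intensity left was 21.0 on old IEL, 24.6 on young IEL, 54.1 on old SP, 24.04 on young SP, 24.5 on cd27cd28 and 31.1 on others. The scaled log2 difference between young IEL and young SP was then 0.047 in place of -2.15, and that between old IEL and old SP was -1.35 in place of -2.16. In young mice the lower Ciita signal in IEL was thus seen only against the blank spots and not against the surroundings of the spot. Which of these references is the better one on these arrays was not tested.

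**Figure D1:**
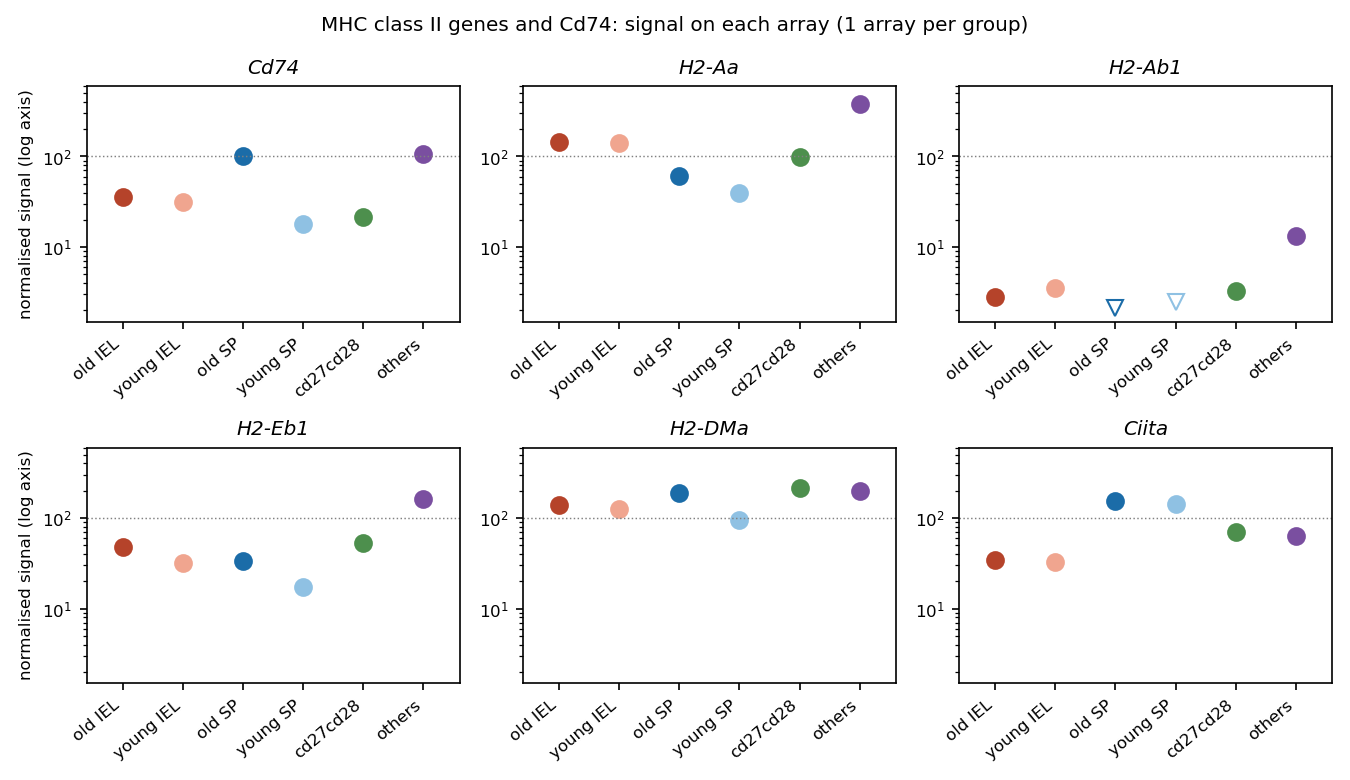
Normalised signal (log axis) of the 6 genes on each array, 1 point per array; open triangles mark the lowest detected signal of an array on which the probe was not detected, and the dotted line marks a signal of 100. H2-Aa and H2-Eb1 were highest on others (379 and 162), Cd74 reached 100.4 on old SP and 107 on others, and Ciita was highest on the spleen arrays (153 and 143).

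**Figure D2:**
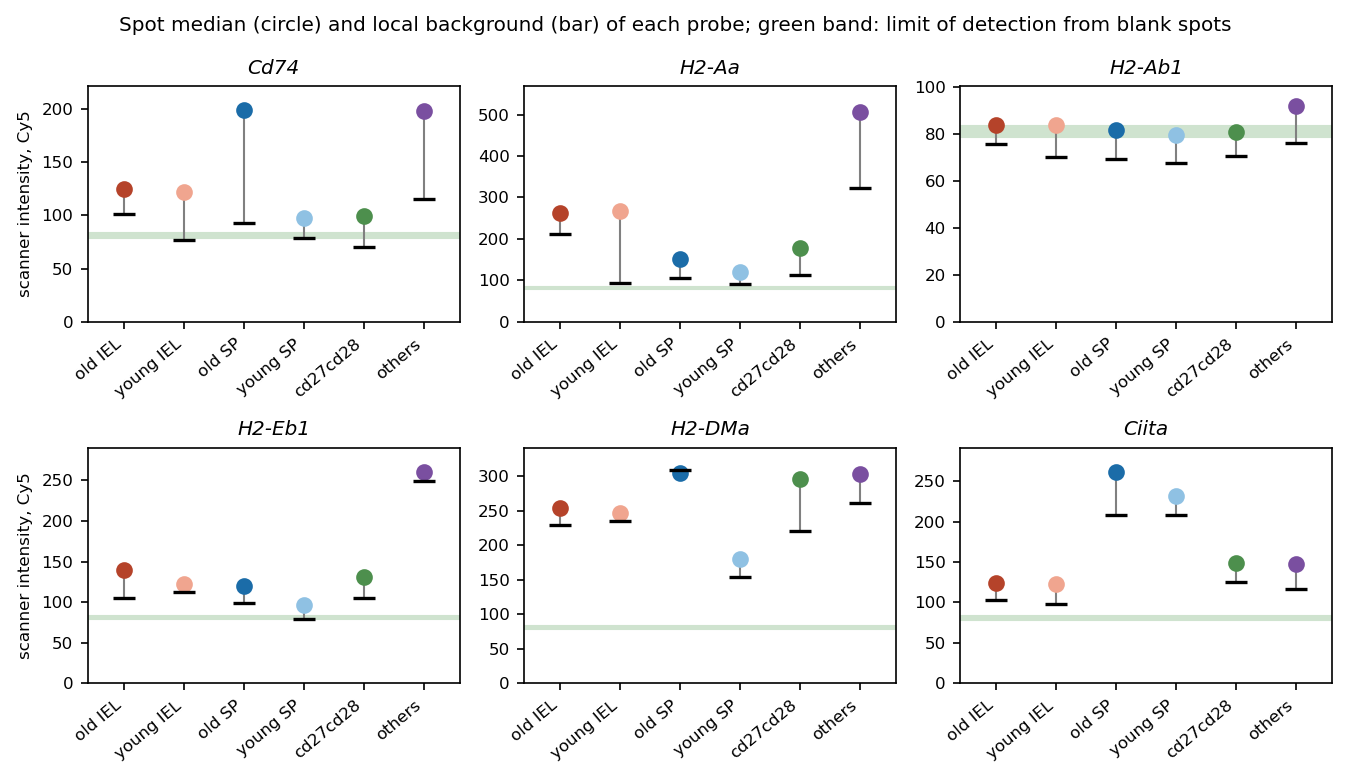
Scanner intensity (Cy5) of the spot (circle) and of its local background (bar) for each gene and array, with the range of detection limits as a green band. The bar lay close under or over the circle for H2-DMa (74.3% to 101.4% of the spot) and for H2-Eb1 on others (95.9%), and further below it for Cd74 on old SP (46.6%).

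The first comparison was between ages in the spleen. Cd74 was higher in old SP, at 100.4, against 18.2 in young SP, a log2 difference of 2.47. It was the only call among the 6 genes, and its signal was only just over the minimum of 100. H2-DMa, at 189 in old SP and 94.8 in young SP, differed by 1.99-fold and so missed the 2-fold threshold narrowly. H2-Eb1 differed by 0.97 and H2-Aa by 0.62 on the log2 scale, at signals below 100, and Ciita by 0.10, which quantile normalisation turned to -0.02. Among all probes over 100, 4.15% were called higher and 1.15% lower in old SP, and the 3 of the 6 genes over 100 gave 1 such call. The median of the 5 detected genes was 0.97, beside 0.07 over all probes detected on both arrays. For Cd74 the local background subtraction gave 2.62, quantile normalisation 2.35 and normexp correction 0.92, all in the same direction. Normexp also takes off the local background and then adds an offset of 50, which makes log2 differences smaller. It is therefore no separate check of that subtraction. H2-DMa turned to -0.29 under normexp.

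Marker genes of other cells were read beside this comparison. Summed signals in old SP and young SP were 234 and 186 for 9 B cell markers, 215 and 131 for 11 macrophage and monocyte markers, and 88.2 and 91.6 for 8 dendritic cell markers. Ms4a1 (CD20, a B cell surface protein) was 5.69 in old SP and not detected in young SP, Cd79a (a B cell receptor chain) was 12.02 and 10.3, Lyz2 (macrophage lysozyme) was 40.4 and 20.5, Csf1r (a macrophage growth factor receptor) 56.7 and 42.6, and Itgax (CD11c) 4.34 and 6.46. The B cell marker Cr2, the dendritic cell marker Flt3 and the macrophage markers Fcgr1 and Itgam were detected on no array. No gene of these 3 lists had a signal over 100 on either array, so none could be called. The Lyz2 difference of 0.98 turned to -1.77 with local background subtracted, the background being 96.4% of the spot on old SP. The part that other cells have in the Cd74 difference was not tested. Fewer cells of a type and less RNA per cell cannot be told apart on bulk arrays.

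In the epithelium the same age comparison gave 0 calls among the 6 genes, of which 2 were over 100. H2-Eb1 differed most, at 47.4 in old IEL and 31.5 in young IEL (log2 0.59). Cd74 differed by 0.16, H2-DMa by 0.15, Ciita by 0.09 and H2-Aa by 0.04, each under the 0.18 of spot error, and the dim H2-Ab1 by -0.36. Among all probes over 100, 2.68% were called higher and 3.72% lower in old IEL. The median of the 6 genes was 0.12, beside -0.09 over all detected probes. With local background subtracted, H2-Aa gave -1.62, a call in the lower direction: the background beside that spot was 80.4% of the spot on old IEL and 35.2% on young IEL. The age difference of Cd74 was thus 2.47 in SP and 0.16 in IEL, 2.30 apart, and with 1 array per group that gap was not tested. With local background subtracted these values were 2.62 and -0.81, and under normexp 0.92 and -0.27. Dendritic cell markers summed to 146 in old IEL and 79.0 in young IEL, but to 64.3 and 56.0 without Itgax. Macrophage and monocyte markers summed to 139 and 210. The part of these cells was not tested.

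The next comparison was between sites. In young mice H2-Aa was called higher and Ciita lower in IEL than in SP, of 3 genes over 100. Cd74 (0.81), H2-Eb1 (0.88) and H2-DMa (0.39) were not called. Among all probes over 100, 7.73% were called higher and 10.3% lower in young IEL. In old mice H2-Aa was again called higher, and Ciita and Cd74 were called lower, of 4 genes over 100, where 4.5% of all such probes were called higher and 12.8% lower. Cd74 was 35.6 in old IEL against 100.4 in old SP, 2.82-fold lower. H2-Eb1 (0.50) and H2-DMa (-0.46) were not called. The median over all probes was -0.29 in young and -0.46 in old mice, so IEL signals lay lower as a whole under this scaling. Quantile normalisation moved these medians to -0.05 and -0.01, and the share of all calls that were higher moved from 42.8% to 53.5% in young mice and from 26.1% to 53.1% in old mice. The 5 called differences of the 6 genes kept their direction and stayed over 2-fold under it. Cd74 in old mice, at -1.09, was no longer a call, since its signal on old SP was then 93.4, and the other 4 calls remained. With local background subtracted, Ciita turned to 0.047, H2-Eb1 to -0.81 and H2-DMa to -1.15 in young mice, where H2-Aa alone stayed a call. In old mice Cd74 alone stayed a call under it, with H2-Aa at 0.18 and Ciita at -1.35 but below a signal of 100. Under normexp no signal of the 6 genes exceeded 70.2, so the minimum of 100 allowed no call at either age. H2-Aa then differed by 1.30 in young mice and by 0.13 in old mice.

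Summed marker signals in IEL and SP of old mice were 146 and 88.2 for dendritic cells, 139 and 215 for macrophages and monocytes, 240 and 234 for B cells, and 422 and 403 for epithelium. In young mice they were 79.0 in IEL and 91.6 in SP for dendritic cells, 210 and 131 for macrophages and monocytes, 223 and 186 for B cells, and 361 and 314 for epithelium. Itgax was 82.0 in old IEL and 4.34 in old SP, and 22.9 in young IEL and 6.46 in young SP. The dendritic cell markers Flt3, Xcr1 and Clec9a were not detected on any of these arrays. H2-Aa was higher in IEL at both ages, and the dendritic cell sum was higher in IEL in old mice and lower in young mice. Itgax carried that sum: without it the sums were 64.3 in IEL and 83.9 in SP of old mice, and 56.0 and 85.2 in young mice. The part of these cells in the site differences was not tested.

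**Figure D3:**
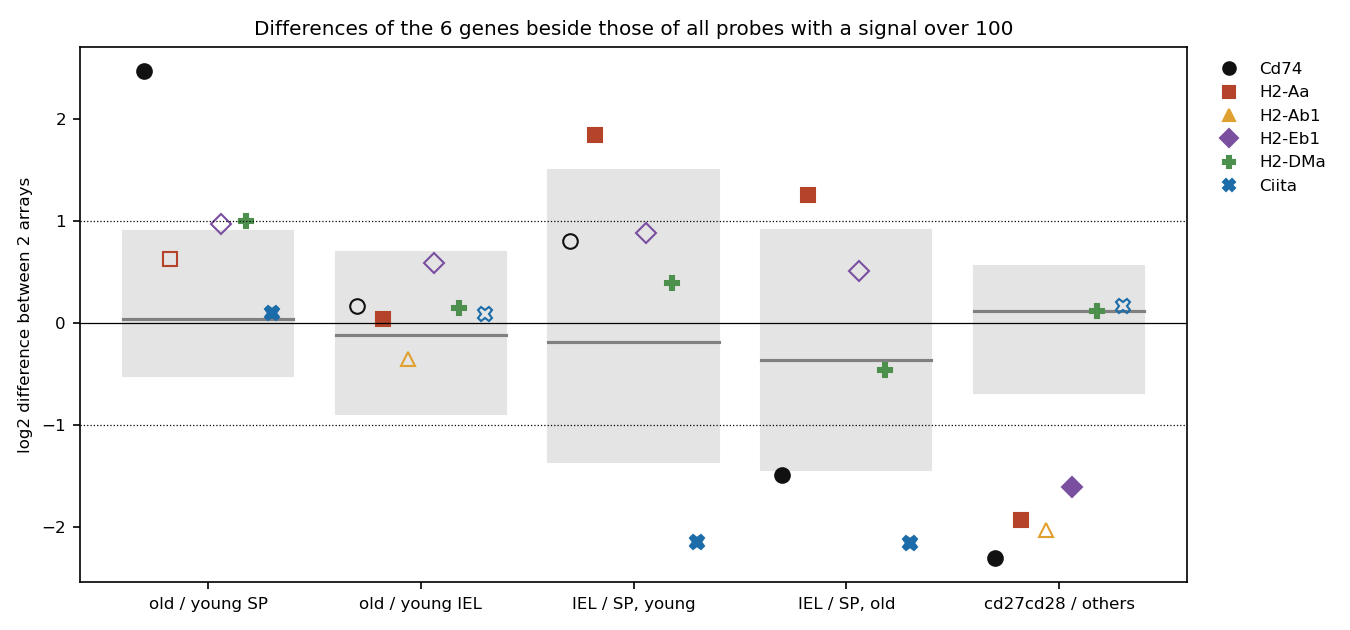
Log2 difference between 2 arrays for the 6 genes in 5 comparisons, filled where the brighter array had a signal over 100; grey boxes span the middle 90% of all probes over 100, grey lines their median, and dotted lines mark 2-fold. Cd74 lies above the box in old against young SP (2.47), H2-Aa above it in both site comparisons (1.84 and 1.26), and Ciita below it in both (-2.15 and -2.16). H2-DMa (0.99) and H2-Eb1 (0.97) also lie above it in SP, and Cd74 (-1.50) below it in old IEL against old SP. In cd27cd28 against others Cd74, H2-Aa, H2-Ab1 and H2-Eb1 lie below it.

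Between the old IEL fractions, 3 of the 4 genes over 100 were called lower in cd27cd28 than in others, where 2.75% of all probes over 100 were called lower and 0.543% higher. Cd74 was 21.6 in cd27cd28 and 107 in others (4.95-fold lower), H2-Aa 99.0 and 379 (3.82-fold lower), and H2-Eb1 53.0 and 162 (3.05-fold lower). H2-Ab1, at 3.24 and 13.3, was 4.10-fold lower but dim. H2-DMa and Ciita differed by 0.11 and 0.17, within spot error. The median of the 6 genes was -1.77, beside 0.08 over all detected probes. Cd74 gave -1.54 and H2-Aa -1.55 with local background subtracted, and -0.60 and -0.91 under normexp. H2-Eb1 turned to 1.26 and 0.19, the background beside its spot being 79.9% of the spot in cd27cd28 and 95.9% in others.

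The same pair of arrays differed in other lists. Macrophage and monocyte markers summed to 206 in cd27cd28 and 983 in others, epithelial markers to 577 and 1253, dendritic cell markers to 101 and 168, and B cell markers to 293 and 278. Lyz2 was 12.2 in cd27cd28 and 711 in others, and Krt8, an epithelial keratin, 6.89 and 375, both calls. Epcam, an epithelial adhesion molecule, was 9.03 and 58.5, and Vil1 (villin of the brush border) 50.05 and 80.2. The complement gene C1qb (6.25 and 61.9) and the brush border enzyme Sis (not detected and 65.2), named after their values were seen, showed the same order. Further markers, in part chosen after their values were seen, went the other way: Cdh1 (E-cadherin) was 108 in cd27cd28 and 103 in others, Lgals4 (a gut galectin) 123 and 108, and Csf1r 72.6 and 61.6. Of the epithelial markers detected on both arrays 9 were lower and 4 higher in cd27cd28, and of the macrophage and monocyte markers 7 were lower and 1 higher. Without Lyz2 the macrophage and monocyte sum was 194 in cd27cd28 and 272 in others, and without Krt8 the epithelial sum was 571 and 878. The part of these cells in the class II differences was not tested. Cd3e was 305 and 228 and Cd4 892 and 664 in cd27cd28 and others.

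**Figure D4:**
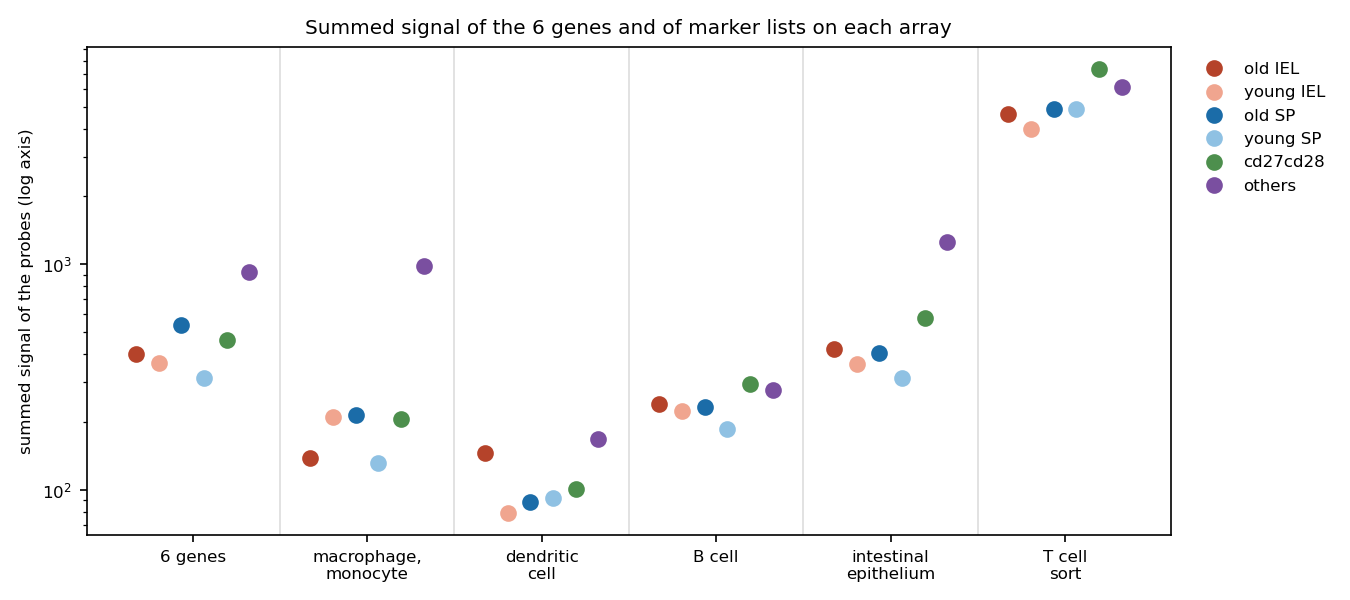
Summed signal (log axis) of the probes of the 6 genes and of 5 marker lists, 1 point per array. On others the 6 genes (922), macrophage and monocyte markers (983) and epithelial markers (1253) all stood above the other 5 arrays, while B cell markers (278) did not exceed cd27cd28 (293). On others, Lyz2 gave 711 of the macrophage and monocyte sum, and Krt8 375 of the epithelial sum.

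The other class II genes were read in the same way. H2-DMb1, the beta chain of H2-M, was even across arrays, at 80.2 on old IEL, 69.4 on young IEL, 94.1 on old SP, 89.8 on young SP, 105 on cd27cd28 and 125 on others. H2-Oa and H2-Ob encode H2-O, which holds H2-M in check and is known mainly from B cells. H2-Ob was 32.8 on old IEL, 28.6 on young IEL, 126 on old SP, 114 on young SP, 21.0 on cd27cd28 and 44.2 on others. It was called lower in IEL at both ages (-1.95 in old and -1.99 in young mice), and it gave -2.05 and -1.55 with local background subtracted. H2-Oa was 3.71 on old IEL, 5.61 on young IEL, 38.0 on old SP and 26.6 on young SP, lower in IEL at both ages but never over 100. Ciita, H2-Oa and H2-Ob thus all had higher signals on the spleen arrays than on the IEL CD4 arrays against the blank spots, while H2-Aa had lower ones. For Ciita in young mice this order was not kept with local background subtracted (0.047) or under normexp (0.020), which uses the same local background.

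The promoter factors of class II genes, listed together with the coactivators Crebbp and Ep300, gave 0 calls in all 5 comparisons, with 3 or 4 of 8 genes over 100 in each. Among all probes over 100, between 0.543% and 12.8% were called in a given direction, so 0 among so few genes says little. Rfxap, an RFX subunit, ranged between 558 and 843 over the 6 arrays, Nfyb between 199 and 247, and Nfyc between 195 and 372. Of 10 genes for processing and turnover with a probe, the protease Ctsb was called higher in old SP than in young SP (1661 and 727) and in young IEL than in young SP (1926 and 727). Ctss, which trims the invariant chain, was called lower in old IEL (51.3) than in old SP (161), as was Ctsz (65.1 and 138). The protease inhibitor Cst3 was called higher in old IEL (595) than in young IEL (257).

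Interferon gamma induces Ciita in many cells, and Ifng had 9447 on old IEL, 6281 on young IEL, 2379 on old SP, 169 on young SP, 15452 on cd27cd28 and 10403 on others. It was called higher in old SP than in young SP (log2 3.82) and in IEL than in SP in young (5.22) and old mice (1.99). Ciita was highest on old SP, at 153 and, with local background subtracted, at 75.7. A link between Ifng and Ciita was not tested. The receptor chain Ifngr1 and the kinase Jak2 were called higher in young IEL than in young SP (315 and 130, 844 and 295), and Ifngr1 was called lower in cd27cd28 (171) than in others (373). Among 13 class I pathway genes with a probe, 10 were over 100 in each comparison. The only call was the peptide transporter Tap1, lower in old IEL (61.1) than in old SP (157), where 12.8% of all probes over 100 were called lower. Cxcr4, a chemokine receptor that can act with Cd74 in binding the cytokine Mif, was called lower in IEL than in SP in old (log2 -2.90) and young mice (-2.69).

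**Figure D5:**
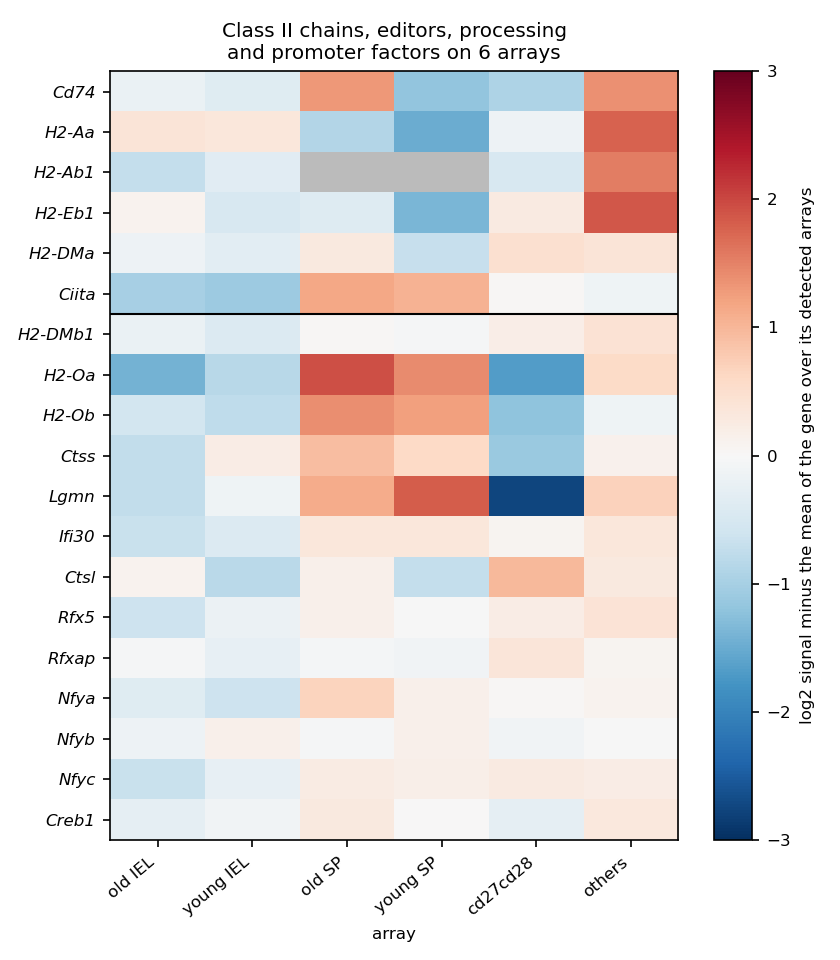
Log2 signal of class II chains, editors, processing genes and promoter factors on the 6 arrays, each minus the mean of the gene over the arrays on which it was detected; grey marks arrays without detection, and the line separates the 6 genes from the others. H2-Aa, H2-Ab1 and H2-Eb1 were darkest red on others, whereas Ciita, H2-Oa and H2-Ob were redder on both spleen arrays than on old and young IEL.

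Likeness of profile was measured as the root mean square difference between log2 profiles, each centred on its mean over the 6 arrays, among 5239 genes detected on all of them with a signal over 100 on at least 1. The genes nearest to H2-Aa were Mt1 (0.36), Il1b (0.39), H2-Eb1 (0.45) and Cks1b (0.48), beside a median of 1.07 over all genes compared. Nearest to H2-Eb1 were Snx10 (0.43), Il1b (0.44), H2-Aa (0.45) and Krt18 (0.48). H2-Aa and H2-Eb1 were thus each among the 4 nearest of the other, and Il1b, near to both, had 115 on others and at most 29.1 on the other 5 arrays. All distances were taken on signals minus the blank spots. With local background subtracted, H2-Aa was still highest on others (250), whereas H2-Eb1 had 14.7 there and 50.5 on old IEL. Nearest to Cd74 were Tedc2 (0.48), Tnfsf11 (0.54), Slc26a11 (0.57) and Hif1a (0.60), with a median of 1.03. Nearest to Ciita were Rgl2 (0.11), Zfp566 (0.15), Nab2 (0.18) and Traf3ip3 (0.19), with a median of 0.83, and Rgl2 had 84.5 on old IEL, 83.9 on young IEL, 330 on old SP and 332 on young SP. Nearest to H2-DMa, whose flat profile against the blank spots puts many genes near it (median 0.43), were Ece1 (0.07), Rnf216 (0.08), Lce3c (0.09) and Sdf4 (0.10). Ciita lay far from H2-Aa (1.75) and from H2-Eb1 (1.53). These distances describe 6 arrays and carry no test.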

How the data were processed

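Labelled RNA was read on Toray 3D-Gene mouse 24k arrays with 1 dye, Cy5. The scanner files deposited by the authors hold the median intensity of each spot and that of its local surroundings, merged from 3 gains and not background-corrected. The authors also deposited a table of normalised intensity whose median is 25 on each array. Here a trimmed mean over 384 blank spots, without the outer 5% on either side, was taken off each spot. Probes more than 2 SD over the blanks were kept as detected, and arrays were scaled to a median of 25. The outcome correlated with the value table with an r of at least 0.999997, and the 2 sources disagreed on the detection of 18 to 54 probes an array. A symbol was found for 20690 probes, and 2783 were unnamed.

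Log2 differences were taken over probes detected on both arrays. With 1 array per group there was no test, and the number of arrays limits the precision. The text names the 6 genes, up to 4 genes per list and comparison with the largest difference and a signal over 100, class II chains and promoter factors by their level, defining cell markers, and the 4 nearest profiles per gene. The genes and lists were chosen with earlier results of these data known. Alternatives were quantile normalization, 75th percentile scaling, normexp with an offset of 50 (limma 3.58.1, R 4.3.3), the deposited table, the brightest probe of a gene, a signal minimum of 200 or none, a 3-fold threshold, adding 16 to signals, and setting undetected probes to the detection floor. Normexp takes off the local background too, so it and plain local background subtraction are not independent. The plain subtraction was added after seeing the data. The calling of differences was tested by putting known changes into probes with a mean signal over 200, with spot error as the only noise. Changes in dimmer probes were not tried. The work was done in Python 3.11.15 with numpy 2.4.6 and pandas 2.3.3.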

Additional observations from a re-analysis of the deposited data

Results flagged for a closer look

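Cd74 and H2-DMa differed between IEL and SP in opposite directions at the 2 ages. Cd74 differed by -1.50 on the log2 scale in old mice (35.6 in old IEL, 100.4 in old SP) and by 0.81 in young mice (31.8 in young IEL, 18.2 in young SP). H2-DMa differed by -0.46 in old mice (137 in old IEL, 189 in old SP) and by 0.39 in young mice (124 in young IEL, 94.8 in young SP). With 1 array per group the difference between the ages was not tested. The H2-DMa value in old mice equals the median over all probes in that comparison (-0.46), and quantile normalization moved it to -0.13, beside 0.54 in young mice. For H2-DMa neither difference reached 2-fold, and under normexp correction the values were 0.30 in old and -0.18 in young mice.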

How the results depend on the processing

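Each count below is of calls among the 6 genes. Under normexp none of their signals exceeded 70.2, so the minimum of 100 allowed no call and each 0 there was fixed in advance. A minimum of 200 was passed only by H2-Aa on others (379) and H2-DMa on cd27cd28 (215). In old against young SP the 1 call (Cd74) became 0 under quantile normalization, 75th percentile scaling, normexp and a minimum of 200. Cd74 stood at 100.4 against the minimum of 100, and at 93.4 and 99.7 under both rescalings, whereas under normexp its difference itself was 0.92. In old against young IEL the count of 0 became 1 with local background subtracted, which was added after seeing the data, where H2-Aa turned to -1.62. In young IEL against young SP the count of 2 became 0 under normexp and a minimum of 200 and 1 with local background subtracted, and Ciita turned to 0.020 under normexp and 0.047 with local background subtracted. In old IEL against old SP the count of 3 became 0 under normexp and a minimum of 200, and 1 under the 3-fold threshold (Ciita) and with local background subtracted (Cd74), and 2 under quantile normalization and 75th percentile scaling (without Cd74). In cd27cd28 against others the count of 3 became 0 under normexp and 1 with a minimum of 200 (H2-Aa). It became 2 under quantile normalization (without Cd74) and with local background subtracted (without H2-Eb1), and 4 with no minimum. H2-Eb1 turned to 0.19 under normexp and 1.26 with local background subtracted. The cause was not tested, beyond the thresholds themselves.

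Of 27 single differences, 10 changed sign under normexp, 1 under quantile normalization and 0 under 75th percentile scaling or with 16 added, and 8 of 25 did with local background subtracted. The counts under normexp and with local background subtracted share the same local background and are not independent. Over all probes the share of calls that were higher in old than in young IEL was 41.9%, and 52.9% under quantile normalization. In cd27cd28 against others that share was 16.5%, and 64.0% under normexp. No paired analysis was possible because each group has 1 array, and no replicate could be left out. Signals near the blank limit, such as those of H2-Ab1, have no order.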
